A study of Rattus norvegicus with 24 samples.

Results

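The 14 punches labelled nucleus accumbens (NAC), from adult rats, were placed in an order that runs from cortical to striatal transcript content. The order, and with it the libraries at each end, was chosen by the measured value of log2(Ppp1r1b CPM / Slc17a7 CPM), where CPM is a gene's estimated count per 1e6 estimated counts of its library. All 14 NAC libraries of the 24 libraries in the series were members, and the 10 libraries of the ventral tegmental area were not analysed here. The 5 libraries with the highest ratio (the striatal end) were set against the 5 with the lowest (the cortical end), with 4 libraries between them. The ratio chose both ends, so every level, fold and correlation along the order is a description without a test.

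The rats were male first-generation offspring, at least 60 days old, whose fathers had self-administered morphine (MOR-sired, 7 NAC libraries) or saline (SAL-sired, 7 NAC libraries) for 60 days. No strain, allele or further agent was named in the labels, and both groups share the father's self-administration procedure. Each punch was taken from both sides of the brain, and total RNA was made into directional libraries. Library totals ran from 21.9 to 41.3 M estimated counts (1 M is 1e6), and 23912 to 25599 of 37403 identifiers had at least 1 estimated count. Neither animal nor litter was named for any library, so p-values reflect how these libraries varied among themselves.

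The nucleus accumbens is the ventral part of the striatum, and most of its neurons are GABAergic medium spiny neurons. Those of the direct pathway carry the dopamine receptor Drd1 with the peptide precursors Pdyn and Tac1, and those of the indirect pathway carry Drd2, Adora2a and Penk. Ppp1r1b encodes DARPP-32, a phosphatase regulator that relays dopamine signals in both. Striatum has very few glutamatergic cell bodies of its own, whereas cortical pyramidal neurons express Slc17a7, the vesicular glutamate transporter VGLUT1. In bulk tissue, fewer cells of a type and less RNA per cell cannot be told apart.

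Ppp1r1b, the numerator of the ratio, was at 159.7, 281, 311, 602 and 677 CPM in the cortical-end libraries MOR-sired 2, MOR-sired 7, MOR-sired 3, SAL-sired 1 and MOR-sired 5. It was at 766, 860.3, 862 and 1325 CPM in the middle libraries SAL-sired 4, 2, 6 and 5, and at 1783, 2179, 2162, 2308 and 3119 CPM in the striatal-end libraries MOR-sired 1, SAL-sired 7, MOR-sired 6, SAL-sired 3 and MOR-sired 4. In the same order Slc17a7 was at 1366, 1337, 1357, 1287 and 1220 CPM, then 1084, 1145, 1060 and 770.3 CPM, then 719.8, 609, 567, 576 and 111 CPM. The 2 ends did not overlap for either gene, which the rule nearly fixes. The ratio ran from -3.10 in MOR-sired 2 to 4.82 in MOR-sired 4. Just inside and outside the cortical end it was -0.85 and -0.50, and just outside and inside the striatal end 0.78 and 1.31.

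Adora2a, the adenosine receptor of indirect-pathway neurons, was not part of the ratio and fell into the same order in all 14 libraries. It was at 3.98, 18.0, 20.9, 61.4 and 63.8 CPM at the cortical end, at 69.0, 96.7, 97.8 and 159 CPM in the middle, and at 195, 249, 253, 288 and 335 CPM at the striatal end. The highest library exceeded the lowest 84.2-fold for Adora2a, 19.5-fold for Ppp1r1b and 12.4-fold for Slc17a7. These spreads lay in different places: within the 8 libraries of lowest ratio Slc17a7 varied only 1.29-fold while Adora2a varied 24.6-fold. Within the 6 libraries of highest ratio Slc17a7 varied 6.96-fold and Adora2a 2.11-fold. Across the 14 libraries Pearson's r of CPM was -0.988 for Ppp1r1b with Slc17a7 and 0.994 for Ppp1r1b with Adora2a, values that share the library total.

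**Figure D1:**
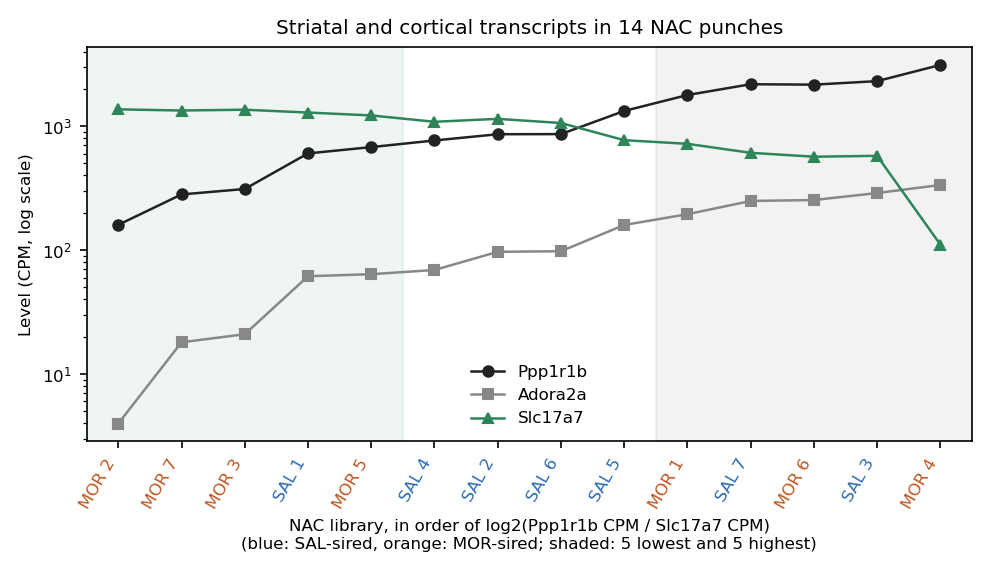
Levels in CPM (log axis) of Ppp1r1b, Adora2a and Slc17a7 in each of the 14 NAC libraries, placed in order of the ratio, with the 5 lowest and 5 highest shaded and one point per library. Slc17a7 lies between 1060 and 1366 CPM in the 8 lowest libraries and drops to 111 CPM in MOR-sired 4, while Adora2a climbs from 3.98 to 335 CPM.

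Both extremes were MOR-sired libraries, and MOR-sired 2 had the lowest ratio and the lowest Ppp1r1b and Adora2a. In MOR-sired 2 the striatal transcription factor Six3 was at 0.928 CPM and the dopamine receptor Drd1 at 18.6 CPM, against 72.8 and 246 CPM in MOR-sired 4. Not every striatal marker was lowest in MOR-sired 2. Drd2 was lowest in MOR-sired 7 (13.1 CPM, 13.49 CPM in MOR-sired 2) and Penk in MOR-sired 3 (171.8 CPM, 190.6 CPM in MOR-sired 2). Slc17a7 was above Ppp1r1b in 8 of 14 libraries, all those with a ratio below 0. So the striatal defining markers were present in every library, at levels that differed by more than an order of magnitude, together with a marker of cortical neurons.

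To show the sequence context of genes at both ends, the 250 bases before the annotated start are printed for 2 direct-pathway genes, Drd1 and Pdyn, and for 2 cortical genes, Slc17a7 and Neurod2 (a transcription factor of pyramidal neurons). Sequences are from RefSeq (GRCr8), 5′ to 3′ on the gene's strand, with CpG dinucleotides in capitals. Of 34 genes named always or at an extreme of the order, 23 matched an entry, and Ppp1r1b and Adora2a were among those without one.
Drd1 (chr17:10546354-10546603, plus strand): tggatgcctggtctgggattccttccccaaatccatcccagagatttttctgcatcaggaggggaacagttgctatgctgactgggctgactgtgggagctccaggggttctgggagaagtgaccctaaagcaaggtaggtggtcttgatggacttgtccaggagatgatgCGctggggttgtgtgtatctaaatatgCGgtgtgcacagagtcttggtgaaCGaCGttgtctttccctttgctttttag
Pdyn (chr3:137366504-137366753, minus strand): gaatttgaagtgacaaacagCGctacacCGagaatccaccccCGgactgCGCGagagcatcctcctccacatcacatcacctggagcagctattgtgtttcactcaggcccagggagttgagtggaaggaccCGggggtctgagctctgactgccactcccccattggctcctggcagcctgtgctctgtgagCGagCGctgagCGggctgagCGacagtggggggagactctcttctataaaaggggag
Slc17a7 (chr1:104785955-104786204, plus strand): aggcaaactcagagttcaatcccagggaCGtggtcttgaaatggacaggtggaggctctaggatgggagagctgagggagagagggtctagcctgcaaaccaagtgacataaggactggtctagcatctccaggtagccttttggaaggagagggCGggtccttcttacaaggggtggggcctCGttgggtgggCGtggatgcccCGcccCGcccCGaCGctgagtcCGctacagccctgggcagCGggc
Neurod2 (chr10:83824278-83824527, minus strand): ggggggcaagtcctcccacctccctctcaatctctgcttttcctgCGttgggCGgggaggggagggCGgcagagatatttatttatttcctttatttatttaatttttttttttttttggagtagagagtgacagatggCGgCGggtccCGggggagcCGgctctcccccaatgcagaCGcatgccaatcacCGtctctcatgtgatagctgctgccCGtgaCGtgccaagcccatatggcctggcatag
The Drd1 stretch held 4 CpG, and those of Pdyn, Slc17a7 and Neurod2 held 10, 10 and 11.

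Of 37403 identifiers, 15946 had a mean of at least 1 CPM, and 15944 remained without the 2 genes of the ratio. Spearman's rho with the ratio was at least 0.8 for 1501 of them (9.41%) and at most -0.8 for 1296 (8.13%). The first set is called striatal-side below, and the second cortical-side. The median rho over all genes was 0.06 and the median log2 difference between the ends 0.02. Most differences were modest, since 357 striatal-side genes differed at least 2-fold between the means of the ends, 97 at least 4-fold and 8 at least 8-fold. On the cortical side these numbers were 244, 10 and 0. Genes without overlap between the ends and at least 2-fold apart numbered 358 (2.25%) toward the striatal end and 263 (1.65%) toward the cortical end. Without the fold these numbers were 1785 (11.2%) and 1583 (9.93%). Without MOR-sired 4 the 263 became 167, and without MOR-sired 2 and 4 the striatal and cortical sides held 1398 and 1006 genes. Nothing is read from these shares, because the rule used the same contrast. Protein-coding genes made up 88.7% of all genes described, 96.3% of the striatal side and 96.2% of the cortical side, and 1 of the 709 small RNAs was in either set.

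The list of transcripts shared by both kinds of medium spiny neuron stood almost entirely on the striatal side. Of 25 members besides Ppp1r1b, 23 had a rho of at least 0.8 and none was at -0.8 or below, with a median of 0.99. Rgs9, a striatal regulator of G protein signalling, went from 35.3 ± 23.3 to 243 ± 57.8 CPM (mean ± SD, n = 5 per end). Pde10a, a cAMP and cGMP phosphodiesterase, went from 54.9 to 285 CPM, and Gng7, a G protein subunit, from 148 to 792 CPM. Transcription factors of these neurons differed by unequal amounts: the retinoic acid receptor Rarb was at 13.8 and 78.9 CPM, Foxp1 at 31.5 and 84.2 CPM and Bcl11b at 50.5 and 102 CPM. Rgs14 (rho -0.11) and Ryr1 (rho 0.75) were the 2 exceptions, with Rgs14 at 77.7 and 77.0 CPM.

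Direct-pathway markers followed, with 6 of 8 on the striatal side and a median rho of 0.96. Drd1 ran through 18.6, 24.4, 31.4, 58.6 and 52.6 CPM at the cortical end, 60.0, 67.1, 70.5 and 115 CPM in the middle, and 145, 153, 168, 172 and 246 CPM at the striatal end. The ends did not overlap, and their means differed 4.77-fold. Pdyn, the precursor of dynorphin, went from 55.7 to 344 CPM and Tac1, the precursor of substance P, from 91.0 to 445 CPM. The LIM factor Isl1 was at 0.91 and 10.6 CPM. Eya1 (rho -0.73) and Sfxn1 (rho -0.63) pointed the other way, with overlapping ends.

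Indirect-pathway markers gave 7 of 8 on the striatal side, with a median rho of 0.98. Drd2 was at 13.49, 13.1, 22.2, 40.9 and 49.9 CPM at the cortical end, at 44.9, 68.5, 66.0 and 100.2 CPM in the middle, and at 127, 170.0, 158, 188 and 200.3 CPM at the striatal end. The fold between the means was 6.04. Penk, the precursor of enkephalins, went from 281 ± 106 to 1348 ± 399 CPM, and Six3 from 6.93 to 54.9 CPM. Ttc12, a neighbour of Drd2, had a rho of -0.40.

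Among genes of the ventral or medial striatum 5 of 8 were on the striatal side. Cartpt, the precursor of CART peptides, went from 57.0 to 369 CPM, and the dopamine receptor Drd3 from 1.59 to 8.29 CPM. Crym, Calcr and Wfs1 had positive rho below 0.8. All 6 markers of cholinergic interneurons, a sparse striatal cell type, were on the striatal side. Chat, which makes acetylcholine, was at 1.01 and 6.56 CPM, and the choline transporter Slc5a7 at 2.35 and 10.3 CPM. Summed over the list, they stood at 3.65 to 14.1 CPM per library at the cortical end and 34.7 to 64.1 CPM at the striatal end. The 12 GABA interneuron markers split: Kit and the serotonin channel Htr3a were on the striatal side, and Vip, Pvalb, Reln and Sst on the cortical side. Vip went from 31.3 to 10.7 CPM and Pvalb from 137 to 73.9 CPM, while Nos1 (rho 0.24) and Lhx6 (rho -0.20) differed little.

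Cortical glutamatergic markers were lower toward the striatal end in 17 of 20 members described, and 13 were at rho -0.8 or below (median -0.90). One further member, Dkkl1, was under 1 CPM. Neurod2 was at 73.8, 66.8, 70.1, 60.1 and 62.6 CPM at the cortical end and at 35.5, 27.9, 26.3, 27.6 and 4.67 CPM at the striatal end. Slc30a3, the zinc transporter of glutamatergic vesicles, went from 111 ± 23.6 to 28.0 ± 14.7 CPM, and Tbr1, a cortical T-box factor, from 74.2 to 32.9 CPM. Neither gene overlapped between the ends, and each was lowest in MOR-sired 4, at 8.53 and 9.03 CPM. Kcnh4 (rho 0.91), Baiap2 (rho 0.92) and Itpka (rho 0.51) went the other way.

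Markers of single cortical layers were less uniform than the shared cortical list. In the upper-layer list 3 of 10 described members were on the cortical side and 2 on the striatal side. Cux2, an upper-layer homeobox factor, went from 36.7 to 15.04 CPM, but its relative Cux1 went from 54.3 to 76.2 CPM. Rorb, a layer 4 nuclear receptor, was at 9.49 and 7.46 CPM with overlapping ends (rho -0.37). In the deep-layer list Ccn2, Cplx3 and Rxfp1 were on the cortical side, and Syt6, Tle4 and Tshz2 on the striatal side. Fezf2, a selector factor of subcortically projecting neurons, was at 19.8 and 10.4 CPM (rho -0.66). In the claustrum and endopiriform list Gng2 and Ntng2 were on the cortical side and Synpr, a synaptic vesicle protein, on the striatal side. Nr4a2 in that list was at 67.7 and 40.6 CPM, overlapping. Cdhr1, an olfactory bulb projection neuron gene, went from 51.9 to 26.1 CPM, with Tbx21 and Eomes of the same list under 1 CPM.

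Glial and vascular markers did not follow the order at the same threshold, with 1 exception. None of 16 oligodendrocyte genes passed 0.8 in size, although all 16 had a negative rho (median -0.39), where 7388 of all 15944 genes had one. Their summed level was 10260 to 12580 CPM at the cortical end and 9387 to 11070 CPM at the striatal end. Myelin basic protein, Mbp, was at 5544 and 4852 CPM. Of 16 astrocyte genes only Slc4a4, a bicarbonate transporter, passed (32.5 and 54.9 CPM). Summed astrocyte levels overlapped at 4255 to 4705 and 4138 to 4877 CPM. None of 15 microglial, 12 endothelial, 12 mural and fibroblast, 8 oligodendrocyte precursor, 7 ependymal, 7 choroid plexus or 5 blood genes described passed. Over all genes 9.41% passed on the striatal side and 8.13% on the cortical side, so little can be read from none passing in lists this short. Summed choroid plexus genes ran from 94.5 to 476 CPM at the cortical end and 85.1 to 959 CPM at the striatal end.

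Lists for regions beside the accumbens are small, and over all genes 9.41% were striatal-side and 8.13% cortical-side, so nothing is read from their counts. In the septum and basal forebrain list 1 of 8 described genes passed, Nkx2-1 (0.70 and 2.46 CPM), a factor of ventral forebrain and interneuron origin. Zic1 and Zic4 overlapped between the ends. In the subcortical glutamatergic list only Prkcd passed, on the striatal side, and Slc17a6 (VGLUT2) was at 9.09 and 5.63 CPM with overlap. Among neuroblast and dividing-cell genes, the homeobox genes Dlx6 and Dlx5 were on the striatal side and Sp8 on the cortical side. Dcx, a neuroblast microtubule protein, was at 17.9 and 9.30 CPM (rho -0.77), and 10 of 12 members had a negative rho. The part of each of these cell types in the order was not tested.

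**Figure D2:**
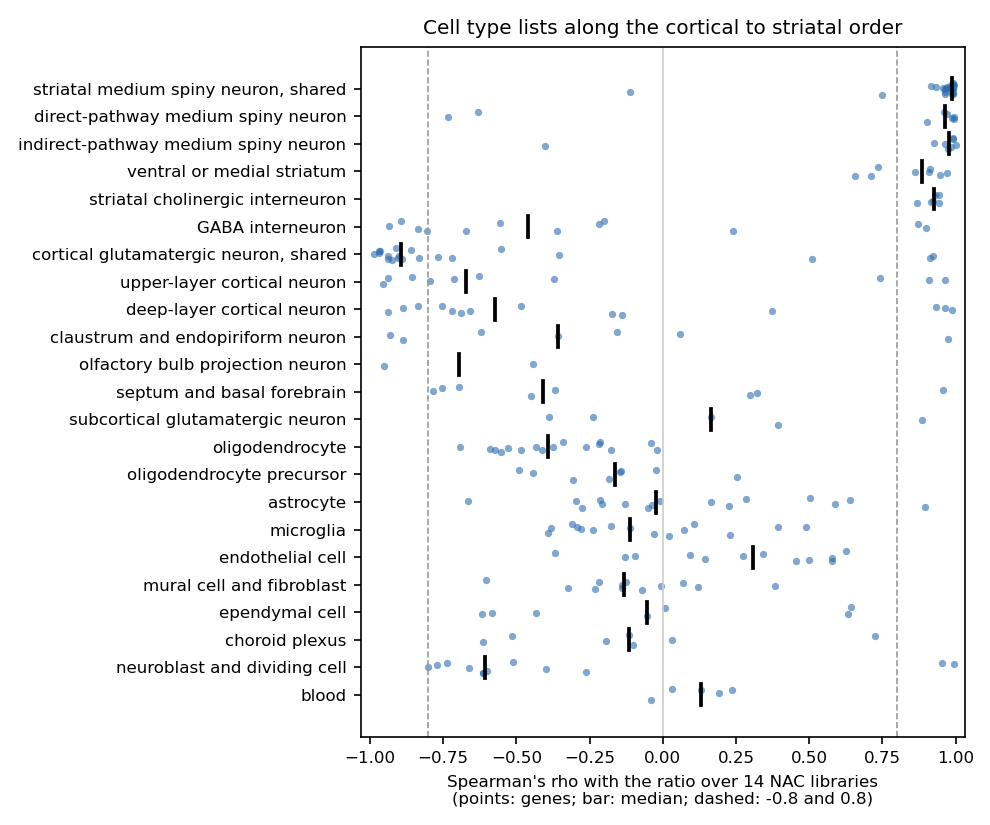
Spearman's rho of each gene with the ratio over 14 libraries (x axis) for 23 cell type lists (rows), with one point per gene, a bar at the median and dashed lines at -0.8 and 0.8. Medium spiny neuron lists crowd near 1 with medians of 0.99, 0.96 and 0.98, the shared cortical list has a median of -0.90, and glial and vascular lists lie between the dashed lines except for Slc4a4.

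The genes whose levels followed the order most closely, by rho over the 14 libraries, held some without a place in the marker lists. Asic4, an acid-sensing channel subunit, matched the order in all 14 libraries (rho 1.0), at 25.9 and 104 CPM. Hpca, which encodes the calcium sensor hippocalcin, was abundant, at 438 CPM in MOR-sired 2 and 2119 CPM in MOR-sired 4. Prkch, a protein kinase C, went from 5.41 to 31.6 CPM, and Tmem41a, a membrane protein, only from 67.1 to 109 CPM. Adora2a, Pdyn, Drd1, Dlx6 and Six3 were also among the 10 highest. At the other end Olfm2, an olfactomedin, matched the inverse order (rho -1.0), at 140.0 and 64.4 CPM. Tafa1, a secreted neuronal protein, was at 36.6 and 8.03 CPM, Syt17, a synaptotagmin, at 118 and 37.0 CPM, and Kcnip3, a potassium channel partner, at 224 and 107 CPM. Rab4a, an endosomal GTPase, had a rho of -0.99 with only a 1.27-fold difference, 93.3 ± 1.72 against 73.6 ± 5.49 CPM. Ptpn3, Stpg1, Neurod2, Cpeb1 and Cast completed the 10 lowest.

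Genes of dopamine and cAMP signalling divided by isoform. Of 35 described besides Ppp1r1b, 19 were on the striatal side and 4 on the cortical side, with a median rho of 0.93. The adenylyl cyclase Adcy5, the main striatal form, went from 139 to 487 CPM, and Adcy2 from 104 to 67.4 CPM. The G protein subunits Gnal and Gng7 were at 82.0 and 304 CPM and at 148 and 792 CPM. Of the protein kinase A subunits, Prkar2b was on the striatal side (88.0 and 171 CPM) and Prkar1b and Prkaca on the cortical side (590.5 and 463 CPM, 179.9 and 163 CPM). Drd5 was at 4.61 and 2.68 CPM, the only dopamine receptor on the cortical side, and Drd4 was under 1 CPM.

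The opioid genes were split by receptor type. Of 8 receptors and peptide precursors, 4 were on the striatal side and 2 on the cortical side. The kappa receptor Oprk1 was at 3.83, 3.52, 4.71, 6.84 and 5.94 CPM at the cortical end and 12.9, 16.1, 16.0, 15.8 and 19.0 CPM at the striatal end, a 3.21-fold difference of means. The mu receptor Oprm1, the main target of morphine, was at 2.44, 1.65, 4.09, 5.10 and 3.68 CPM and at 8.51, 8.77, 7.73, 10.1 and 6.70 CPM, a 2.47-fold difference. Neither receptor overlapped between the ends. The nociceptin receptor Oprl1 (22.8 and 14.6 CPM) and its peptide precursor Pnoc (20.5 and 10.6 CPM) were on the cortical side. The delta receptor Oprd1 was at 10.6 and 12.7 CPM, with overlap.

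Other receptors also divided between relatives. Of 30 further G protein-coupled receptors 16 were on the striatal side and 5 on the cortical side. The serotonin receptors Htr1d (1.30 and 7.45 CPM) and Htr6 (6.57 and 23.3 CPM) were striatal-side, and Htr1a (10.2 and 4.34 CPM) cortical-side. The muscarinic receptor Chrm4 was at 39.3 and 65.3 CPM and Chrm3 at 32.5 and 15.4 CPM. The glutamate autoreceptor Grm2 was at 31.2 and 10.9 CPM. The cannabinoid receptor Cnr1 was on the cortical side by rho (-0.88), at 80.1 and 48.2 CPM, though its ends overlapped. Among 15 RGS proteins, which shorten G protein signals, Rgs8, Rgs9, Rgs10, Rgs2 and Rgs20 were on the striatal side and Rgs4, Rgs7, Rgs6 and Rgs19 on the cortical side.

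Channels and transmitter genes gave further pairs. Of 38 potassium channel genes 12 were on each side. Kcnip2 went from 65.9 to 227 CPM while Kcnip3 went the other way, and the inward rectifier Kcnj2 went from 6.58 to 20.4 CPM while Kcnj6 went from 28.1 to 10.9 CPM. Of 20 GABA genes 6 were striatal-side, among them the synthesis enzymes Gad1 (159 and 320.0 CPM) and Gad2 (117 and 310.4 CPM) and the receptor subunit Gabra4 (72.0 and 139 CPM). The GABA-B subunit Gabbr2 (152 and 74.4 CPM) was cortical-side. Of 18 ionotropic glutamate receptor subunits 4 were striatal-side, with Grin3b at 4.42 and 12.2 CPM, and Gria3 and Grin2d were cortical-side. Among vesicle genes Sv2c was at 11.9 and 66.3 CPM and Sv2b at 192 and 110 CPM. Syt6 was at 8.90 and 41.2 CPM, against the inverse pattern of Syt17.

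**Figure D3:**
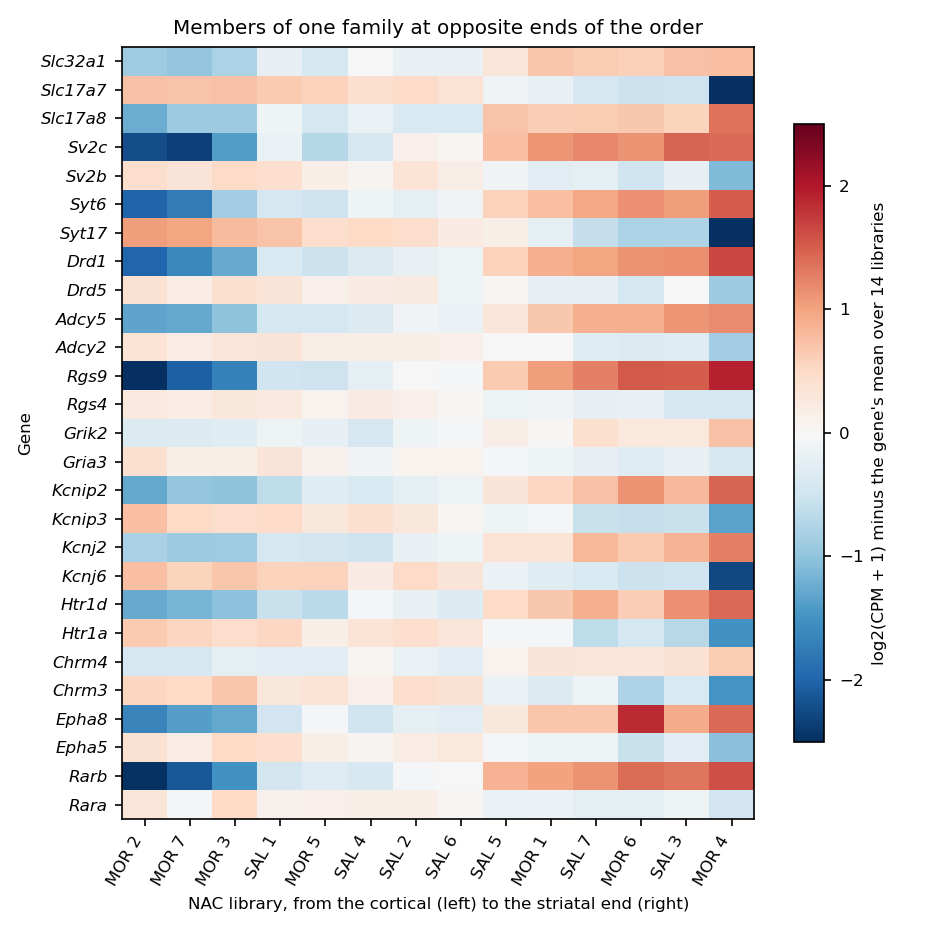
Difference of log2(CPM + 1) from each gene's mean over 14 libraries (colour scale in log2 units, saturated at both ends) for members of 13 gene families (rows), with libraries in the order of the ratio (columns). The members were chosen for their opposite places after their values were seen; Sv2c, Syt6 and Rgs9 are red at the right, and Sv2b, Syt17 and Rgs4 blue at the right.

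Of 20 neuropeptide genes 5 were on the striatal side, namely Pdyn, Penk, Tac1, Cartpt and Nts, and 7 on the cortical side. Cck, the precursor of cholecystokinin, was the most abundant of the latter, at 2272 and 862 CPM. Adcyap1, the precursor of PACAP, went from 11.9 to 2.56 CPM and Cort from 46.3 to 14.9 CPM. In retinoic acid signalling, which shapes striatal development, 8 of 16 described genes were striatal-side. The receptors Rarb (13.8 and 78.9 CPM) and Rxrg (25.1 and 87.1 CPM) led, and Rara (12.3 and 8.67 CPM) was the 1 cortical-side member. Of 20 immediate early genes none was striatal-side, where 9.41% of all genes were. A positive rho, up to 0.6, was found for 6 of them, Egr3 and Homer1 included. Dusp6, Bdnf and Jun were cortical-side, with Bdnf, a neurotrophin made by cortical neurons, at 16.3 and 5.63 CPM, while Fos was at 61.4 and 38.3 CPM (rho -0.65). Eph receptors and ephrins gave 3 on each side, with Epha8 at 6.44 and 29.3 CPM and Ephb3 at 13.7 and 6.88 CPM. Among 8 perineuronal net genes, the link protein Hapln4 was cortical-side (51.4 and 22.2 CPM) and Has3, a hyaluronan synthase, striatal-side.

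Housekeeping lists stayed near the middle. Of 37 nuclear-encoded respiratory chain genes 1 passed, Sdhd (144 and 166 CPM), and summed levels overlapped at 19190 to 21620 and 20290 to 21040 CPM. The glycolytic enzyme gene Gapdh was at 4374 and 3752 CPM (rho -0.70).

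The place in the order did not differ detectably between sire groups. The mean ratio was -0.04 ± 2.84 in MOR-sired and 0.33 ± 1.22 in SAL-sired libraries (SD, n = 7 each). The difference was -0.37 (two-sided exact permutation test over 3432 splits, p = 0.763, smallest possible p 0.000583). The ranges were -3.10 to 4.82 and -1.10 to 2.00, so the 3 lowest libraries and the highest were MOR-sired. With Adora2a in place of Ppp1r1b the difference was -0.92 (exact permutation p = 0.535). Without MOR-sired 2 the difference was 0.14, and without MOR-sired 4 it was -1.18. Of the cortical-end libraries 4 were MOR-sired and 1 SAL-sired, and of the striatal-end libraries 3 and 2.

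Relations to the ratio were then described within each group of 7. Spearman's rho was at least 0.8 for 1403 genes in SAL-sired and 2230 in MOR-sired libraries, and at most -0.8 for 1332 and 1853. Of the striatal-side genes in SAL-sired libraries, 60.9% were also striatal-side in MOR-sired libraries, and 38.3% of the MOR-sired set were in the SAL-sired set. On the cortical side these shares were 60.6% and 43.6%. The sign of rho was shared by both groups for 74.9% of genes, and 4 genes passed 0.8 in opposite directions. All of Adora2a, Drd1, Pdyn and Six3 had a rho of 1.0 in each group. Nr4a2 had a rho of -0.25 and -0.82 in SAL-sired and MOR-sired libraries, where the range of the ratio was also wider in the latter.

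Whether the slope on the ratio differed between sire groups was tested with edgeR's quasi-likelihood interaction term, in log2 units per unit of ratio. It gave 0 of 18220 genes at an adjusted p under 0.05 (0%) and 910 (4.99%) at an unadjusted p under 0.05. DESeq2 called 17 of 18220 genes. Among genes with a symbol and at least 1 CPM, Kctd1, a BTB-domain nuclear protein, had the smallest p, with a slope lower by 0.21 in MOR-sired libraries (log2 difference -0.21, SE 0.03, edgeR adjusted p = 0.306). Tmeff1 (0.14), the stress-response gene Sesn1 (-0.13), Adissp (-0.12) and the LIM-domain gene Fhl4 (-0.41) followed, each at an edgeR adjusted p of 0.696.

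The sire comparison was next fitted with the ratio as a covariate. No gene passed (0 of 18220, 0%, smallest edgeR adjusted p = 0.163, for an identifier without a gene symbol). An unadjusted p under 0.05 was found for 2355 genes (12.9%), against 1126 (6.18%) without the ratio. With the ratio and its square it was found for 1499, and 0 passed (smallest edgeR adjusted p = 0.517), so this number moved with the form of the covariate. DESeq2 with the ratio alone as covariate, run with its outlier cutoff off, called 184 of the 14334 genes to which it gave an adjusted p. Of these, 119 were higher and 65 lower in MOR-sired libraries. In edgeR 100 of 18446 genes were called without MOR-sired 1 and 60 of 18437 without MOR-sired 7. With only the 10 libraries inside the SAL-sired range of the ratio, 53 of 19312 genes were called, 51 of them lower in MOR-sired libraries. That fit was unbalanced, since it kept every SAL-sired library but only MOR-sired 1, 5 and 6. Among genes with a symbol and at least 1 CPM, the smallest p belonged to Haghl (log2 difference 0.37, SE 0.06), the zinc finger gene Zfp692 (0.54, SE 0.09), the pentraxin receptor Nptxr (-0.52, SE 0.09), Tmem176a (-0.20, SE 0.04) and the adaptor subunit Ap4m1 (0.20, SE 0.04). Each had an edgeR adjusted p of 0.185, in the fit of all 14 libraries with the ratio alone as covariate.

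The error of the sire comparison was smaller with the ratio in the fit for every list of at least 5 genes except choroid plexus and blood. The drop was largest for striatal neurons. Striatal neuron genes followed the ratio by rho, so a smaller error with the ratio in the fit was nearly fixed in advance. Ppp1r1b of the ratio was itself in the shared medium spiny neuron list. The median SE of the log2 difference over all genes was 0.114 without and 0.0826 with the ratio. It was 0.453 and 0.134 for shared medium spiny neuron genes, 0.546 and 0.144 for direct-pathway genes and 0.583 and 0.179 for indirect-pathway genes. For opioid genes it was 0.302 and 0.129. For oligodendrocyte genes it was 0.0812 and 0.0755, and for astrocyte genes 0.0665 and 0.0611. Shared cortical genes, Slc17a7 of the ratio among them, had a median log2 difference of 0.02 without the ratio, with 7 of 21 lower in MOR-sired libraries. With the ratio the median was -0.32, with 18 of 21 lower, none called and 12 at an unadjusted edgeR p under 0.05, where 9945 of all 18220 genes were lower. With the ratio and its square the median was -0.04, with 14 of 21 lower, so the value moved with the form of the covariate.

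**Figure D4:**
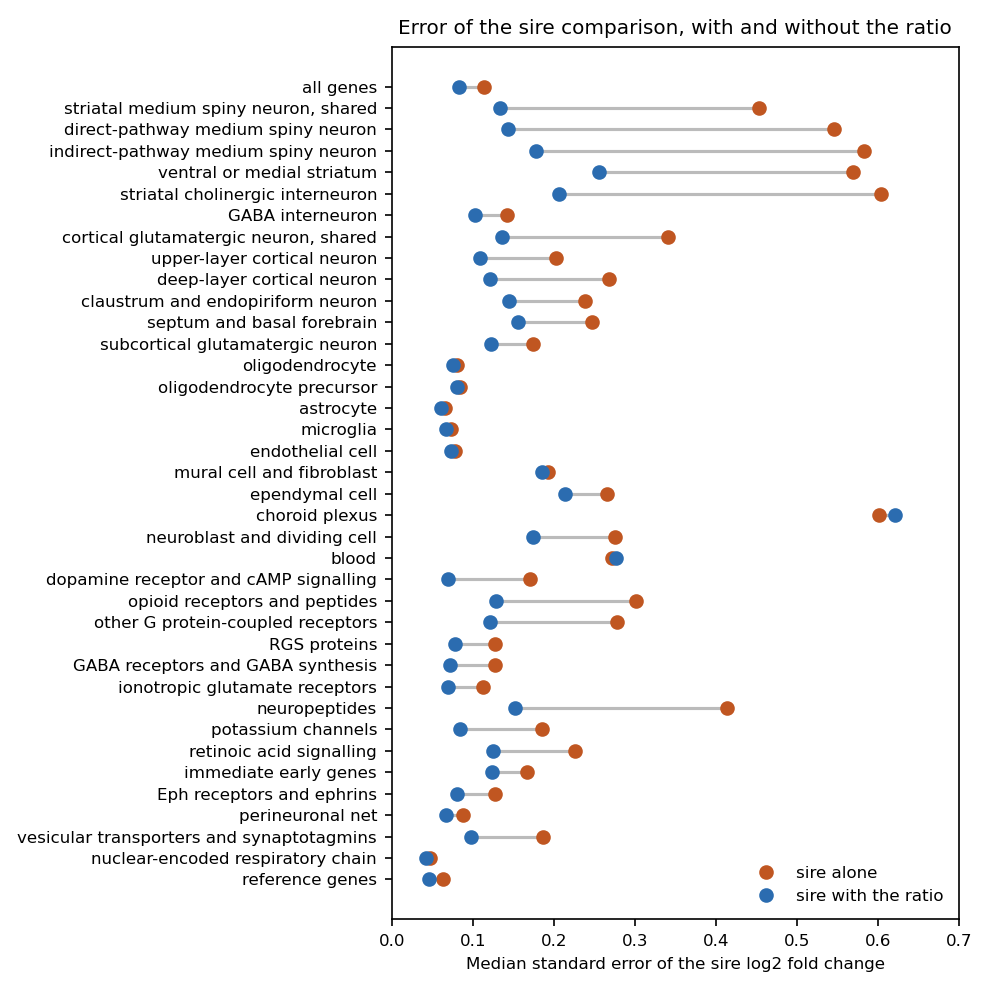
Median standard error of the sire log2 fold change (x axis) over the genes of each list with at least 5 genes fitted (rows), from edgeR fits with sire alone (orange) and with the ratio added (blue). Striatal neuron lists shift most, from 0.453 to 0.134 for shared medium spiny neuron genes, and oligodendrocyte genes barely, from 0.0812 to 0.0755. The shared medium spiny neuron list holds Ppp1r1b of the ratio, and its shift was nearly fixed in advance.

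The ratio showed no detectable relation to 3 technical measures across the 14 libraries, by permutation tests with 100000 draws. For the library total r was -0.0529 (p = 0.855, adjusted p = 0.944) and rho -0.222 (p = 0.444, adjusted p = 0.917). For genes detected r was 0.0208 (p = 0.944, adjusted p = 0.944) and rho 0.033 (p = 0.917, adjusted p = 0.917). For the library number in the labels r was 0.109 (p = 0.712, adjusted p = 0.944) and rho 0.0769 (p = 0.798, adjusted p = 0.917). Without the 2 libraries farthest from the median ratio, MOR-sired 4 and 2, r was -0.177, -0.192 and -0.034. Within SAL-sired libraries r was -0.176, -0.282 and 0.347, and within MOR-sired libraries -0.0477, 0.258 and 0.0883. The labels named no sequencing batch or date.

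Promoter composition was compared as a description over 250 bases before the start. The median number of CpG was 11 in 287 striatal-side genes with at least a 2-fold difference and an entry, 12 in 183 such cortical-side genes, and 15 in 12551 of the genes described. Fewer than 5 CpG, as in Drd1 above, were found in 23.3%, 17.5% and 14.8%, and in 42.9% of all 27457 promoters of the table. The E-box CAGATG (or CATCTG on the other strand), of the type bound by NEUROD factors, was in 16% of the striatal-side, 14.8% of the cortical-side and 9.87% of all described promoters, and in 13.7% of the table. The forkhead letters TGTTTAC, or GTAAACA on the other strand, were in 2.44%, 2.19%, 2.03% and 3.25%. The cAMP response letters TGACGTC, or GACGTCA on the other strand, were in 1.74%, 2.73%, 4.65% and 2.95%. Among the printed stretches Neurod2 held the E-box.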

How the data were processed

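RNA from rat NAC punches was sequenced, and the deposited table holds an estimated count for each gene, which per the file name the authors scaled from transcript abundances to each library's total. Levels are therefore on a per-length scale, not read numbers, and no counting interval was computed. Trim Galore, kallisto and DESeq2 are the tools named, without versions, in the submitters' processing notes. The sources used here give no build, annotation or strand setting.

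Plain CPM gave the ratio, rho and folds for genes with a mean of at least 1 CPM. For tests the estimated counts were rounded, filtered with filterByExpr, scaled by TMM and fitted with edgeR 4.0.16 quasi-likelihood models (R 4.3.3, limma 3.58.1) with Benjamini-Hochberg adjustment. DESeq2 1.42.0, other scalings, minimum levels, numbers of libraries per end, other ratios, a replicate block and leaving out each library were alternatives. A quadratic term and a restriction to the SAL-sired range were added after seeing the data. Scripts (Python 3.11.15, SciPy 1.17.1) were tested on simulated data. Tests were two-sided. No 2 libraries of the same sire group were duplicates within sampling noise.

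Named genes were a set list of markers, the 10 highest and 10 lowest rho, up to 4 members per list by size of rho with opposite members past 0.5, and the 5 smallest p per fit. Other list members were chosen after their values were seen. The members and the 38 gene lists were chosen with earlier results of these data known. VTA libraries were not used here, and some genes that the naming rule selects are not reported here.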

Additional observations from a re-analysis of the deposited data

Results flagged for a closer look

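Of 40 groups of 7 libraries looked at, 4 held a library whose gap to its nearest neighbour, relative to the range of its group, passed Dixon's 95% critical value of 0.568, and chance passes about 1 in 20. The groups reuse the same libraries, so nothing is read from the number of flags. In MOR-sired 4, the most striatal library, log2 CPM of Slc17a7 was 6.79 against 9.15 in the next lowest MOR-sired library. Slc17a7 is the denominator of the ratio that placed this library, so its flag is not independent of the rule. In the same library log2 CPM of Tbr1, a cortical factor, was 3.17 (next 5.05) and that of Rorb, a layer 4 receptor, was 1.66 (next 2.71). SAL-sired 5 had the largest total, 41.27 M estimated counts, against 29.1 M in the next SAL-sired library, and held a middle place in the order (ratio 0.78).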

How the results depend on the processing

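Scaling by TMM or DESeq2 size factors moved the median log2 difference between the ends from 0.02 to 0.01 and 0.00. Apart from leaving out single libraries, 42 of 53 alternatives were classed as the same, 8 as moved and 3 as reversed. For numbers of genes by rho or between the ends, which carry no test, the same means a number of similar size and not a call. The rho of named genes moved in 21 alternatives and stayed in 115, none reversed. Adora2a in place of Ppp1r1b gave the same order of libraries. No rho, and no count of genes by rho or between the ends, could move in those alternatives. Genes apart between the ends numbered 223 (striatal) and 155 (cortical) at a minimum of 5 CPM, 97 and 52 with 7 libraries per end, and 480 and 403 with 4. Sire calls with the ratio were 184 with DESeq2 and 53 within the SAL-sired range, and interaction calls 17 with DESeq2. The r of genes detected turned to -0.192 without the 2 farthest libraries and to -0.282 within SAL-sired libraries, and that of library number to -0.034 without the 2. Leaving out single libraries gave a sire difference in ratio of -1.18 to 0.141, 1278 to 1705 striatal-side and 1061 to 1525 cortical-side genes, 316 to 421 and 167 to 377 genes apart between the ends (167 without MOR-sired 4), 0 to 100 sire calls and 0 to 0 interaction calls. For library total, genes detected and library number r then ranged from -0.239 to 0.0352, -0.228 to 0.21 and 0.0183 to 0.301. The cause of these shifts was not tested. Same-numbered libraries of the 2 sire groups correlated at -0.26 to 0.0964 in their deviations from the group mean. The ratio was not removed from these deviations, so they cannot decide whether the numbers pair the libraries. With a replicate block the ratio difference was -0.369 and the sire and interaction calls were 0 and 0. Depth of single genes is not known, since values are scaled estimates.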

Other observations

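The largest folds along the order included genes outside the lists, chosen here after their values were seen. Nexn, an actin-binding protein, was at 5.60 and 53.1 CPM at the cortical and striatal ends, and the orphan receptor Gpr101 at 3.62 and 32.0 CPM. Toward the cortical end Bhlhe22, a neuronal helix-loop-helix factor, was at 25.7 and 5.93 CPM, the relaxin gene Rln1 at 12.2 and 2.44 CPM, and the neurotrophin Ntf3 at 3.21 and 0.68 CPM. Ttr, the choroid plexus transthyretin gene, ran from 0.59 to 828 CPM with a rho of -0.20.

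The first principal component of log2 levels held 29.5% of the variance over 15946 genes, with an absolute r of 0.986 with the ratio, and 56.2% over 13878 protein-coding genes with a symbol, with 0.99. The second held 10.9%, with an absolute r of 0.107 with the ratio. Its scores were 0.207 ± 0.102 in SAL-sired and -0.207 ± 0.238 in MOR-sired libraries (exact permutation test, p = 0.0035, adjusted over 5 components p = 0.0175), with 1 MOR-sired library above the lowest SAL-sired one. Among genes with a symbol, the strongest loadings were mostly on small RNAs, such as Snord43l1 (0 to 21.15 CPM) and Mir30d (0 to 27.26 CPM). The protein-coding genes among these loadings were Ube2v1l1, Rpl30, Rpl30l2 and Adora2a. This second component was looked at after the data were seen. Its r with library number was -0.644, and the part of library number was not tested. Over protein-coding genes the corresponding component gave p = 0.0111 (exact permutation test, adjusted p = 0.0554), so the call did not hold there.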
